A study of Mus musculus with 8 samples.

Results

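The response of staggerer fibroblasts to 12 h of doxorubicin was described across all genes that could be measured. The 2 arrays titled Sg Dox+ were set against the 2 arrays titled Sg Dox-, which makes 4 of the 8 arrays of the series. Genes entered through their brightest probe if that probe was above background on at least 2 of the 8 arrays, which left 9340 genes, 715 of them unnamed probes. The untreated group held embryonic fibroblasts of staggerer mice on the C57BL/6J background with no drug, and the treated group held the same kind of cells after 12 h with doxorubicin at a dose not given in the sources used here. Staggerer is a mouse mutation that deletes part of Rora, which encodes the nuclear receptor RORα, and both groups carry it. The other 4 arrays are wild type cells of the same background without and with the drug, 2 arrays each. They enter below for the shared estimate of spread and for the test of whether the response differs between the genotypes. How many embryos or isolates stand behind each genotype, and whether the arrays of a group are separate cultures, is not stated, so p-values measure the spread between these arrays, which may be technical. A difference between the genotypes cannot be told apart from a difference between isolates.

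Doxorubicin is an anthracycline that intercalates into DNA, traps topoisomerase II on cut DNA and evicts histones from chromatin. The breaks activate the kinases of the damage response and, through them, the transcription factor p53, whose targets arrest the cycle or start apoptosis. Transcription as a whole can also be slowed by the drug, and messages with short lives then run down sooner than long-lived ones, a general property of messages stated here as background. Embryonic fibroblasts are connective tissue cells that secrete collagen, elastic fibres and proteoglycans.

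Signal on the staggerer doxorubicin arrays was lower through the middle of the range and not at the top. Before normalization the tested genes had a median signal, corrected for background, of 8.92 ± 0.03 (SD, n = 2) on the log2 scale in untreated staggerer cells and 7.80 ± 0.05 after doxorubicin. Detected probes numbered 10964 ± 31.1 without and 9411 ± 233 with the drug, and the 100 brightest probes took 18.5% ± 0.10 and 23.7% ± 0.06 of all signal. The 99th percentile was 14.66 and 14.59 on the untreated arrays and 14.99 and 14.87 on the treated ones. Of the tested genes, 882 were detected on both untreated and neither treated array and 119 the other way round. Quantile normalization gives every array the same distribution, so changes below are relative to the other genes on the array. Whether the cells held less RNA, or whether the arrays received less of it, was not tested, and in a bulk sample fewer cells of a type and less RNA per cell cannot be told apart. Rora itself stood at 6.58 and 6.56 (log2 normalized intensity) on the untreated staggerer arrays and at 6.56 and 6.24, undetected, on the treated ones, a change of -0.17 ± 0.17 (SE, limma adjusted p = 0.387), beside 7.72 and 8.08 and 7.99 and 7.92 on the wild type arrays without and with the drug. The probe's place with respect to the deleted part was not looked up, so these levels check no genotype.

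**Figure D1:**
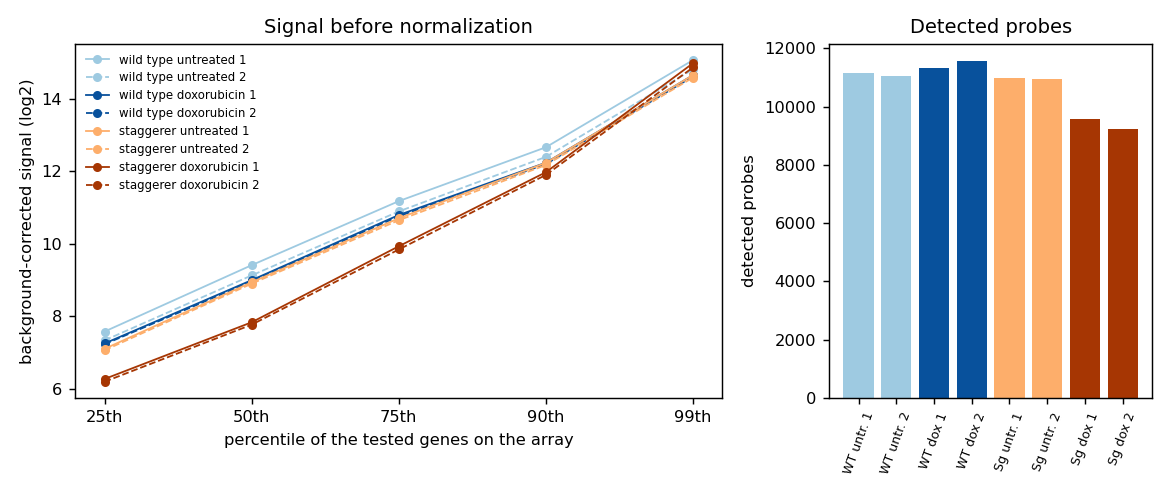
Left, background-corrected signal before normalization (log2) at 5 percentiles of the tested genes, 1 line per array; right, probes detected on each array (WT, wild type; Sg, staggerer; dox, doxorubicin; untr., untreated). The 2 staggerer doxorubicin arrays lie below the other 6 from the 25th to the 90th percentile and have 9576 and 9246 detected probes.

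The scaling between arrays therefore matters, and each result was computed under 4 scalings: quantile normalization with and without background correction, centring on the median, and leaving the arrays unscaled (no between-array normalization). Over all genes the median change was 0.02 on the log2 scale with quantile normalization, 0.02 without background correction, 0.46 with median centring and -0.56 with no between-array normalization. By quantile normalization and limma at an adjusted p under 0.05, 2966 genes rose (31.8% of those tested), 3108 fell (33.3%) and 3266 did not pass. At least a 2-fold change was seen for 1213 of the risen and 1832 of the fallen genes, and at least an 8-fold change for 21 and 52. Risen genes were 48.8% of the calls with quantile normalization, 49.7% without background correction, 66.7% with median centring and 16.7% with no between-array normalization. Under all 4 scalings together, 906 genes were called higher (9.7%) and 2317 lower (24.8%), while 456 were called in opposite directions by some of them. The balance of rises and falls thus rests on the scaling, and a gene or list is described below as held where its calls stand under all 4.

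**Figure D2:**
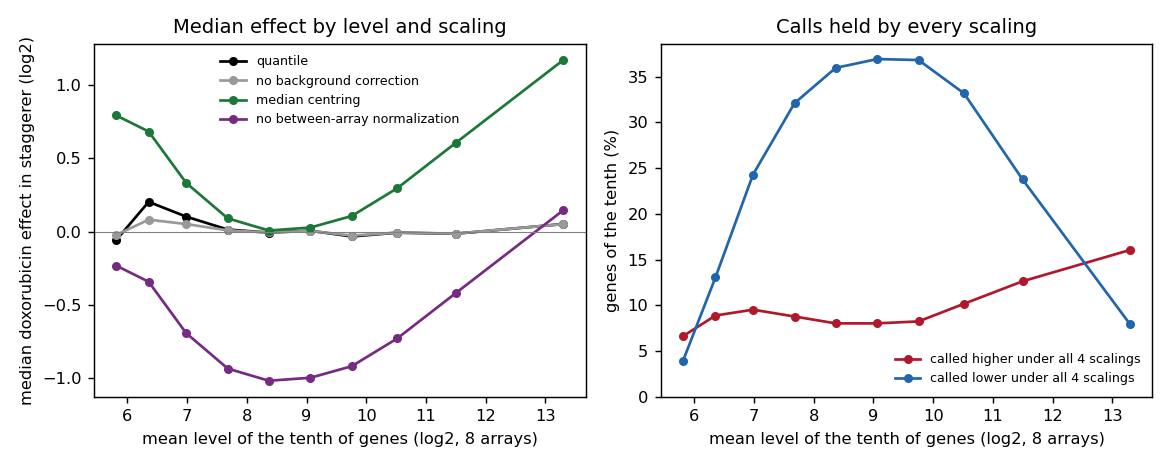
Left, median change after doxorubicin in staggerer cells (log2) for 10 groups of 934 genes ordered by mean level over the 8 arrays (log2), under each of 4 scalings; right, the share of each group (%) called higher or lower under all 4. With no between-array normalization the median runs from -1.02 in the fifth group to 0.15 in the brightest, and the share called lower under all 4 scalings is 36.9% in the sixth group and 7.92% in the brightest.

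The 12 largest of the held rises, among genes detected on all 4 arrays, were led by a mitochondrial protein, a small nuclear RNA and a lipid enzyme. Chchd10, a protein of the mitochondrial intermembrane space, had levels of 6.89 and 6.98 (log2 normalized intensity, as all levels below) on the untreated and 10.70 and 10.98 on the treated arrays. It rose by 3.91 ± 0.13 on the log2 scale (SE, adjusted p = 7.23e-06). Rnu6, the U6 RNA of the spliceosome, which RNA polymerase III makes, stood at 12.36 and 12.42 without and 15.87 and 15.94 with the drug, a rise of 3.52 ± 0.11 (adjusted p = 7.23e-06). Dgat2, which completes triglyceride synthesis, went from 8.13 and 7.94 to 11.27 and 11.19 and rose by 3.20 ± 0.13 (adjusted p = 7.23e-06). In each of these 3 genes both treated arrays lay far above both untreated ones.

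The rest of the 12 largest rises lay between 2.41 and 3.08. They were S100a7a, a calcium-binding protein (3.08 ± 0.13), Mreg, melanoregulin (2.88 ± 0.18), Ccno, cyclin O (2.84 ± 0.16), Cyp27a1, the sterol 27-hydroxylase (2.79 ± 0.19), Slc5a6, a vitamin transporter (2.61 ± 0.12), Epop, a Polycomb partner (2.60 ± 0.11), Fgfbp3, which binds fibroblast growth factors (2.56 ± 0.15), Gldn, gliomedin (2.49 ± 0.20), and Sprr2a1, a cornified envelope protein (2.41 ± 0.22). Genes undetected on both untreated arrays have only a bound there. Cited4, a transcriptional co-activator, was at 5.62 and 5.15 and undetected without the drug and at 10.13 and 9.61 with it, at least 13.5-fold higher (adjusted p = 1.13e-05). The other large bounds were Nrarp, a Notch feedback protein (at least 9.64-fold), Krtap1-5, a keratin-associated protein (at least 9.31-fold), Gbx2, a homeobox factor (8.49-fold or more), the ceramidase Acer2 (at least 8.1-fold) and the potassium channel Kcnc4 (at least 7.27-fold). A second probe of Kcnc4 had a change of 0.12.

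The 12 largest of the held falls, among genes detected on all 4 arrays, included several transcription factors and their inhibitors, among them Cebpb, Snai1, Klf6 and Id3. Cebpb, a leucine zipper factor of inflammation and adipogenesis, had levels of 12.65 and 12.77 without and 9.005 and 8.28 with doxorubicin and fell by 4.07 ± 0.23 on the log2 scale (adjusted p = 1.46e-05), 16.8-fold. Ccn1, a matricellular protein secreted upon growth factor or mechanical stimulation, went from 11.91 and 11.50 to 7.89 and 7.54, a change of -3.995 ± 0.18 (adjusted p = 9.72e-06). Ankrd1, a nuclear ankyrin repeat protein and target of the YAP pathway, went from 11.77 and 11.87 to 8.40 and 8.47, a change of -3.38 ± 0.13 (adjusted p = 7.23e-06). Untreated and treated arrays were far apart in all 3, though the 2 treated values of Cebpb themselves differ by more than the untreated ones.

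Changes in the other 9 ran from -3.33 ± 0.29 for the zinc finger gene Zfp637, whose treated arrays were 6.87 and 7.90, to -3.02 ± 0.16 for Hmgxb4, an HMG-box protein. Between them were Rnd3, a small GTPase (-3.23 ± 0.19), Gadd45g, a stress-induced growth regulator (-3.11 ± 0.16), Fzr1, an activator of the anaphase-promoting complex (-3.08 ± 0.11), Snai1, a repressor of epithelial genes (-3.06 ± 0.16), Klf6, a zinc finger factor (-3.05 ± 0.11), Fgf7, keratinocyte growth factor (-3.04 ± 0.18), and Id3, an inhibitor of helix-loop-helix factors (-3.03 ± 0.20). Further probes were less changed in the same direction for Fzr1 (-2.06 and -1.63), Snai1 (-1.37), Klf6 (-1.96) and Hmgxb4 (-1.57). Among genes undetected on both treated arrays, Amotl2, an angiomotin that binds YAP, fell from 9.87 and 9.72 to below detection and was at least 8.13-fold lower (adjusted p = 1.13e-05). Bounds were also at least 7.22-fold for the GATA cofactor Zfpm2, 6.74-fold for Rgs4, which quenches G protein signals, 6.41-fold for Rabif, which binds Rab GTPases, 6.4-fold for Klf2 and 6.25-fold for Cited2, a co-activator of the Cited4 family.

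Lysosomal genes rose together. Lysosomes are the acid compartments where proteins, lipids and glycans are degraded, and the transcription factors TFEB, TFE3 and MITF are known to drive their genes through an E-box with the core CACGTG. Of 46 genes listed, 39 were on the array and 37 were tested. 27 of these rose, 0 fell and 10 did not pass, against 31.8% and 33.3% of all genes. 25 rises held under all 4 scalings, against 9.7% of all genes. The median change was 0.89, against 0.02 over all genes, and from 0.62 with no between-array normalization to 1.64 with median centring, against -0.56 and 0.46. The share that rose differed with level: of the 7 members over 13 on untreated arrays (among them Cd63, Psap and Lamp2) 1 rose, and of the 30 at or below it 26 rose. Over all genes, 67 of 531 above that level and 2899 of 8809 at or below it rose.

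Scarb2, the receptor that carries glucocerebrosidase to lysosomes, had levels of 8.24 and 8.41 on the untreated and 9.91 and 10.21 on the treated arrays, a rise of 1.74 ± 0.14 (adjusted p = 4.84e-05). Naglu, an enzyme of heparan sulfate breakdown, went from 8.07 and 7.92 to 9.57 and 9.73 and rose by 1.65 ± 0.14 (adjusted p = 5.7e-05). Lipa, the acid lipase that frees cholesterol from its esters, went from 9.10 and 9.17 to 10.76 and 10.54 and rose by 1.52 ± 0.14 (adjusted p = 9.47e-05). The untreated and treated arrays did not overlap for these 3, nor for 81.4% of all genes tested. The protease genes Ctsf and Ctsd (cathepsins F and D) rose by 1.68 ± 0.15 and 1.57 ± 0.15, and Ppt1, which removes palmitate from proteins, by 1.35 ± 0.12. The vacuolar ATPase, the pump that acidifies lysosomes, had 9 of 17 tested subunit genes risen and 1 fallen, against 31.8% and 33.3% of all genes. Of its rises 4 held, against 9.7% of all genes, and its median was 0.35. Without untreated replicate 2 its count of rises was 4. Atp6v0e2, a membrane subunit, rose by 1.75 ± 0.20 (adjusted p = 0.000208). Of 27 autophagy genes 6 rose (22.2%) and 10 fell (37.0%), near the shares of all genes, and with median centring 10 rose and 8 fell. Macrophages are rich in lysosomes, and of their markers 6 of 8 tested members rose and 0 fell, with 1 of the rises held. The summed background-corrected signal of the 12 macrophage markers on the array was 1860 and 1921 without and 2255 and 2126 with doxorubicin, with 6 detected on each untreated array and 7 and 5 on the treated ones, and C1qa undetected on all 4. The part of such cells in the rise of lysosomal genes was not tested.

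Promoter windows from 250 bases before to 50 after the start were taken from RefSeq (GRCm38.p6) for 34 of the 37 lysosomal genes and searched for CACGTG, which reads the same on both strands. It was present in 14 of the 34 (41.2%), against 12.0% of 7017 named genes tested and 8.09% of all 27025 genes with a window. The longer TCACGTGA, which contains it, was in 5 of the 34 (14.7%), against 2.19% and 1.12%. The core was in 10.4% of windows of risen genes, 13.2% of fallen genes and 12.1% of those that did not pass. Among the lysosomal genes, 12 of the 14 with the core rose and 14 of the 20 without it. Rises held under all 4 scalings numbered 10 of the 14 and 14 of the 20, much the same share. Of the 5 genes with the longer motif 3 rose, and Cln3 and Gla did not pass (changes of 0.21 and 0.39). Below are the 150 bases before the start of the 3 that rose, chosen for that reason, with TCACGTGA in capitals. They are Ctsa on the plus strand of chr2:164833623-164833772, Ctsd on the minus strand of chr7:142387828-142387977 and Mcoln1 on the plus strand of chr8:3500369-3500518.
Ctsa: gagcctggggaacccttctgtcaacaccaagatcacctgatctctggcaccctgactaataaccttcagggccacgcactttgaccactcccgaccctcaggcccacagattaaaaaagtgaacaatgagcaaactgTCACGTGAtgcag
Ctsd: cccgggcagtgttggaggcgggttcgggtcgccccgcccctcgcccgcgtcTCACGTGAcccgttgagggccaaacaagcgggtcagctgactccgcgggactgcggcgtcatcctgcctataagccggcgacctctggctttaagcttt
Mcoln1: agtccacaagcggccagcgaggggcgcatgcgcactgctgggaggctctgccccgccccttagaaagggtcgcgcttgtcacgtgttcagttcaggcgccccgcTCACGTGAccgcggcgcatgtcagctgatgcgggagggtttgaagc
Ctsa, cathepsin A, had levels of 10.16 and 10.22 without and 11.40 and 11.29 with the drug and rose by 1.15 ± 0.13 (adjusted p = 0.000227). Ctsd went from 6.87 and 6.91 to 8.50 and 8.43 (adjusted p = 0.000105). Mcoln1, the calcium channel of the lysosomal membrane, went from 8.48 and 8.31 to 10.12 and 9.28 and rose by 1.305 ± 0.28 (adjusted p = 0.00477), a call that was lost with no between-array normalization (0.38). Ctsa has a second TCACGTGA, which lies in the transcribed part of its window and is not shown. The match is a description of letters in these windows and was not tested as a binding site.

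**Figure D3:**
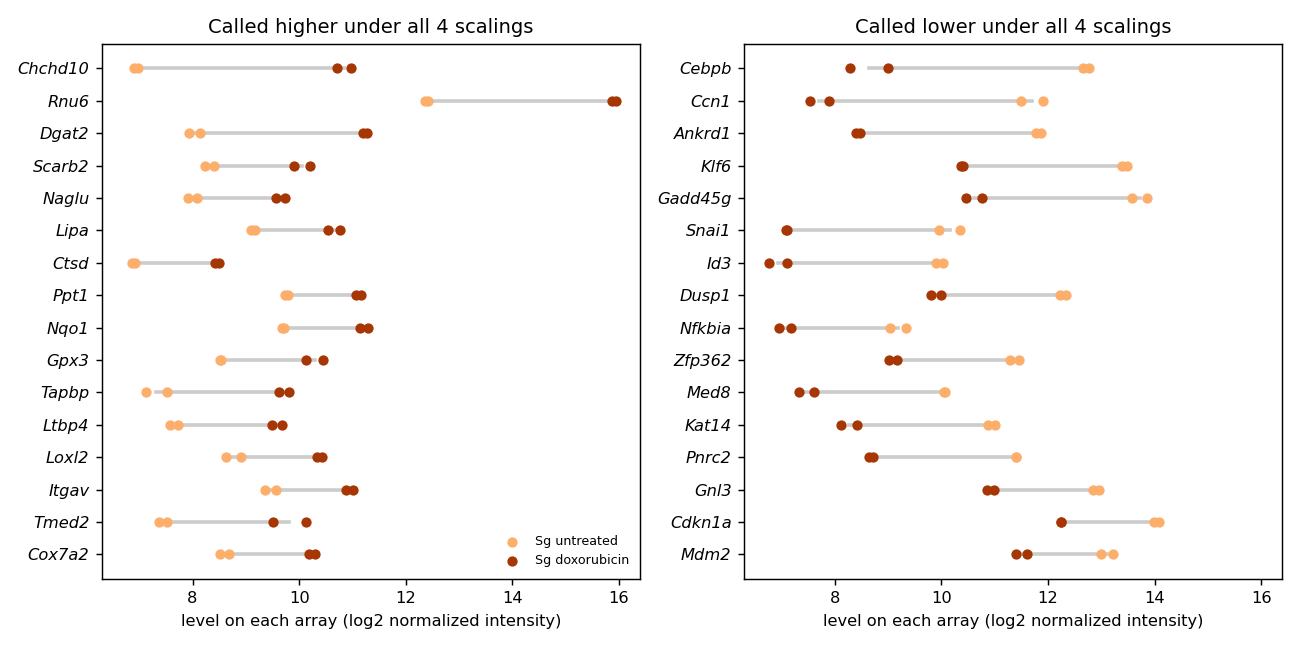
Level of 32 named genes on each of the 4 staggerer arrays (log2 normalized intensity; orange, Sg untreated; brown, Sg doxorubicin; grey, from mean to mean). The genes were picked from those named for their change, from Chchd10 (up by 3.91) to Cebpb (down by 4.07); their untreated and treated arrays do not overlap, as for 81.4% of all genes.

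Antioxidant genes, many of them targets of the factor NRF2, had 18 of 33 members risen and 5 fallen, against 31.8% and 33.3% of all genes. The median was 0.52, and 11 of the rises and 2 of the falls held, against 9.7% and 24.8% of all genes. Nqo1, a quinone reductase, had levels of 9.72 and 9.69 without and 11.30 and 11.15 with doxorubicin and rose by 1.52 ± 0.12 (adjusted p = 4.06e-05). The secreted glutathione peroxidase Gpx3 rose by 1.76 ± 0.14, the glutathione transferases Gstm1 and Gstm5 by 1.32 ± 0.12 and 1.19 ± 0.15, and the extracellular superoxide dismutase Sod3 by 1.26 ± 0.15, the last not held with no between-array normalization. Against them, Nfe2l2, which encodes NRF2 itself, fell by 1.08 ± 0.14 (adjusted p = 0.000362), from 7.78 and 7.94 to 6.87 and 6.68, and Hmox1, the haem oxygenase, fell by 0.88 ± 0.14 (adjusted p = 0.000886). The gene of the factor and a number of its textbook targets thus moved in opposite directions.

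Genes of MHC class I antigen presentation, which displays peptides to T cells, had 11 of 14 members risen and 0 fallen (median 0.84). The shares of all genes were 31.8% and 33.3%. Held rises numbered 4, against 9.7% of all genes. Tapbp, tapasin, which loads peptide onto MHC class I, went from 7.53 and 7.12 to 9.62 and 9.81, a rise of 2.39 ± 0.17 (adjusted p = 3.01e-05); a second probe had a smaller change of 1.33. The immunoproteasome subunit Psmb9 rose by 2.08 ± 0.17 (adjusted p = 5.21e-05), and H2-D1, an MHC heavy chain, was at least 3.21-fold higher (adjusted p = 0.000445). H2-D1 belongs to a family of near-identical genes that a probe may not tell apart. H2-T23 rose by 1.29 ± 0.19 (adjusted p = 0.00069), which did not hold with no between-array normalization.

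Cell surface and matrix genes of the fibroblast rose more often than they fell. Over all genes 31.8% rose and 33.3% fell, with 9.7% and 24.8% held. Integrins, the receptors that bind matrix, had 11 of 17 members risen, 0 fallen and 5 rises held, with a median of 1.12 (0.88 with undetected members at their bound). Itgav, the alpha V chain that binds fibronectin and vitronectin, went from 9.36 and 9.57 to 10.89 and 11.003 and rose by 1.48 ± 0.12 (adjusted p = 5.64e-05). Itga7, a laminin receptor chain, rose by 1.58 ± 0.16, and Itga3 by 0.88 ± 0.12, the last not held with no between-array normalization. Elastic fibre and matricellular genes had 14 of 25 risen and 4 fallen, 10 and 2 of them held, with a median of 0.69 (0.42 at the bounds).

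Ltbp4, which anchors latent TGF-beta and assembles elastic fibres, went from 7.57 and 7.72 to 9.68 and 9.48 and rose by 1.94 ± 0.15 (adjusted p = 4.25e-05). Mfap5, a microfibril glycoprotein, rose by 1.53 ± 0.12, Loxl2, which cross-links collagen, by 1.61 ± 0.17, the thrombospondin Thbs3 by 1.47 ± 0.14 and the fibulin Efemp1 by 1.87 ± 0.20. Eln, elastin itself, went the other way, undetected on both treated arrays and at least 1.09-fold lower (adjusted p = 0.000147), and Ccn5 fell by 1.15 ± 0.16 with quantile normalization, a call lost with median centring (-0.02). Small leucine-rich proteoglycans had 5 of 7 members risen and 0 fallen, against 31.8% and 33.3% of all genes. Among the risen were Fmod, fibromodulin (1.53 ± 0.21), and Dcn, decorin (0.99 ± 0.14). The call for Dcn did not hold with no between-array normalization. Of 21 collagen genes 8 rose, a share of 38.1% near that of all genes, and 1 fell. 4 of these rises held, and the counts were 17 and 0 with median centring and 5 and 4 with no between-array normalization.

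The secretory route had 29 of 62 genes risen and 10 fallen (median 0.35), against 31.8% and 33.3% of all genes. It had 14 rises and 6 falls held, against 9.7% and 24.8% of all genes. Tmed2, a cargo receptor between ER and Golgi, went from 7.51 and 7.37 to 9.50 and 10.13, a rise of 2.37 ± 0.20 (adjusted p = 6.15e-05). The signal peptidase subunit Sec11c rose by 1.47 ± 0.12, and the collagen hydroxylases Plod1 and P4ha1 by 1.78 ± 0.16 and 1.58 ± 0.16. Sec24b, a coat protein of vesicles that leave the ER, fell by 2.06 ± 0.13 (adjusted p = 1.73e-05), so the members of this route did not move as 1 block.

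Subunits of oxidative phosphorylation and proteins of the cytosolic ribosome rose more often than they fell, by an amount that depended on the scaling. Of 71 nuclear genes of the respiratory complexes and ATP synthase 36 rose and 6 fell, 20 and 0 of them held. They had a median of 0.35, 0.30 with no between-array normalization and 1.33 with median centring. These are bright genes, with a median level of 12.50 on the untreated arrays. The brightest 934 of all genes had medians of 0.05, 0.15 and 1.17 in that order. Of these 934, 21.7% were called higher and 16.1% were called higher under all 4 scalings. Cox7a2, of cytochrome oxidase, went from 8.68 and 8.51 to 10.30 and 10.18 (1.64 ± 0.16), Ndufb5, of complex I, rose by 1.68 ± 0.18, and Atp5e, of ATP synthase, by 2.01 ± 0.23. Of 56 cytosolic ribosomal protein genes 20 rose, a share of 35.7% that is near the 31.8% of all genes, and 1 fell, with 15 rises held. Their median was 0.24, beside 0.05 for the brightest 934 of all genes, and with median centring 55 rose and the median was 1.49, beside 1.17. The count of rises fell to 10 without untreated replicate 2. Rps3a1 rose by 1.06 ± 0.11 and Rplp0 by 0.93 ± 0.13; Rps15a, undetected on both treated arrays, was at least 1.38-fold lower (adjusted p = 0.00828). Mitochondrial ribosomal proteins went the other way, with 38 of 70 fallen and 10 risen (median -0.41), 28 of the falls held. In the eighth of the 10 groups of genes by level 39.7% fell and 33.2% had a held fall, beside 33.3% and 24.8% of all genes. Mrpl50, Mrps22 and Mrps31 fell, with changes of -2.09 ± 0.13, -1.55 ± 0.12 and -1.42 ± 0.13, while Mrpl52 rose by 1.02 ± 0.17.

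Replication-dependent histone genes, which lie in clusters and make messages that end in a stem-loop and not in a poly(A) tail, split by core histone. Of 40 tested 26 rose and 8 fell, against 31.8% and 33.3% of all genes. All of the 8 that fell encode H2A, among 13 tested H2A genes, of which 4 rose. Of the other families 9 of 10 H2B, 4 of 6 H3 and 8 of 9 H4 genes rose and 0 fell. H4c6 went from 8.25 and 8.52 to 10.69 and 10.74 (2.33 ± 0.15) and H3c1 rose by 1.86 ± 0.14, while H2ac24 fell from 13.39 and 13.74 to 11.16 and 11.13 (-2.42 ± 0.14) and H2ac10 (-1.96 ± 0.12). These genes are near-identical within a family, so a probe may read several of them and the counts are not of independent genes. In wild type cells the same 8 H2A genes fell and the same 4 rose, and 0 genes of the other families fell. The interaction, the test of a difference between the genotypes described below, was lower in staggerer cells for 25 of the 40 and higher for 0. The shares of all genes were 32.6% and 26.6%.

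Zinc finger genes fell far more often than they rose. Of 150 tested genes of the Zfp series, C2H2 zinc finger proteins many of which repress transcription through KRAB domains, 103 fell and 10 rose, against 33.3% and 31.8% of all genes; 87 of the falls held, against 24.8%. The median was -1.09, or -0.47 with the 74 members undetected on both treated arrays at their bounds. These are dim genes, with 58 of the 150 detected on all 4 arrays. The 74 passed the detection filter through other arrays, so their falls are not independent of that filter. In a fit of genes detected on all 4 staggerer arrays, 38 of the 58 fell and 9 rose, with a median of -0.70. In that fit 2146 of all genes fell and 2704 rose. In the main fit 2038 of the 6693 genes detected on all 4 staggerer arrays fell and 2524 rose. Zfp362 went from 11.29 and 11.45 to 9.01 and 9.17, a change of -2.28 ± 0.12 (adjusted p = 1.28e-05). Zfp292 and Zfp90 were undetected on both treated arrays and at least 5.31-fold and 4.88-fold lower, and a second probe of Zfp292 had a change of -2.29. Zfp212 fell by 2.75 ± 0.15, but a second probe had a change of 0.56. Zfp296 was against the majority, with a rise of 1.77 ± 0.19 (adjusted p = 0.000178).

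Krüppel-like factors, zinc finger proteins that act in growth arrest and stress responses, had 8 of 10 tested members fallen, all 8 held, and 1 risen. Their median was -1.44. The shares of all genes were 33.3% fallen, 24.8% with a held fall and 31.8% risen. Klf6 had levels of 13.49 and 13.38 on the untreated and 10.40 and 10.38 on the treated arrays, a change of -3.05 ± 0.11 (adjusted p = 7.23e-06). Klf2 went from 9.42 and 9.47 to below detection. Klf3, Klf9 and Klf4 fell, with changes of -2.81 ± 0.23, -1.76 ± 0.13 and -1.52 ± 0.18, and a second probe of Klf4 had a larger change of -2.62.

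Immediate early genes, which growth factors and stress induce within minutes and whose messages are short-lived, moved both ways. 16 of 23 fell and 6 rose, against 33.3% and 31.8% of all genes. Of these calls 14 and 4 held, against 24.8% and 9.7% of all genes, and the median was -1.10. Ccn2, connective tissue growth factor, went from 15.94 and 15.98 to 13.43 and 13.54, a change of -2.47 ± 0.12 (adjusted p = 1.03e-05). Its untreated values, like the treated ones of Rnu6, are close to the highest level on the normalized arrays, 16.05, and whether such bright probes were saturated was not tested. Dusp1, a phosphatase that switches off MAP kinases, went from 12.23 and 12.34 to 9.81 and 9.99, a change of -2.39 ± 0.12 (adjusted p = 1.13e-05). Against the majority, the zinc finger factor Egr2 rose from 7.06 and 6.94 to 9.26 and 9.43, by 2.35 ± 0.12 (adjusted p = 1.18e-05). Egr4 and Fosb, a subunit of AP-1, were undetected without the drug and at least 6.91-fold and 7.13-fold higher with it (adjusted p = 1.35e-05 and 4.57e-05), while Fos rose by 1.39 ± 0.21 with quantile normalization and did not pass with no between-array normalization. Of 13 dual specificity phosphatases and Sprouty-family inhibitors, the negative feedback of the MAP kinase pathway, 8 fell and 2 rose. Dusp7, Spred1 and Dusp6 fell, with changes of -2.15 ± 0.13, -2.13 ± 0.12 and -1.30 ± 0.14, and Dusp2 was at least 2.92-fold higher, with a second probe at 0.42.

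Targets of YAP, the co-activator that responds to cell density and tension, had 10 of 15 members fallen, all 10 held, and 3 risen. Their median was -1.44. The shares of all genes were 33.3% fallen, 24.8% with a held fall and 31.8% risen. Ankrd1, Ccn1, Ccn2 and Amotl2, given above, are among the fallen targets. So are Asap1, a regulator of Arf GTPases that fell by 2.96 ± 0.17, and the kinase Nuak2, which fell by 1.52 ± 0.11. Of 16 NF-kB subunits and feedback inhibitors, the system of inflammatory transcription, 12 fell and 0 rose (median -0.84), 10 of them held. The median was -0.53 with undetected members at their bounds, and 6 of the 16 were undetected on both treated arrays. In the fit of genes detected on all 4 staggerer arrays 7 of 9 fell and 1 rose. Nfkbia, the inhibitor IκBα that NF-kB itself induces, went from 9.03 and 9.33 to 7.17 and 6.96, a change of -2.12 ± 0.16 (adjusted p = 3.89e-05). Nfkbiz fell by 1.298 ± 0.12, and Relb and the kinase Map3k14 were undetected on both treated arrays, at least 1.83-fold and 1.78-fold lower.

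Circadian clock genes keep daily time through interlocked feedback loops, and RORα is known to activate Arntl, a member of the core loop. Of 15 such genes 10 fell, 0 rose and 10 of the falls held, against 33.3%, 31.8% and 24.8% of all genes. The median of the clock genes was -0.75. Clock, a core activator, went from 10.78 and 10.69 to 9.61 and 9.72, a change of -1.07 ± 0.11 (adjusted p = 0.000154). The repressors Nfil3 and Bhlhe40 fell, with changes of -1.76 ± 0.14 and -2.02 ± 0.20, the output factor Dbp fell by 1.299 ± 0.14 and the clock kinase Csnk1e fell by 1.94 ± 0.17. Nr1d1, the repressor REV-ERBα that shares its DNA sites with RORα, was undetected on both treated arrays, at least 2.13-fold lower (adjusted p = 0.000216).

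The machinery of transcription and chromatin fell more often than it rose. Of 67 general factors of RNA polymerase II and Mediator subunits 37 fell and 16 rose (median -0.59), with 31 falls and 1 rise held. With undetected members at their bounds the median was -0.39. The shares of all genes were 33.3% fallen and 31.8% risen, with 24.8% and 9.7% held. In the fifth to seventh of the 10 groups of genes by level, 36.3% to 39.3% fell and 36.0% to 36.9% had a held fall. Med8, a head subunit of Mediator, went from 10.07 and 10.04 to 7.60 and 7.33, a change of -2.59 ± 0.13 (adjusted p = 1.13e-05). Gtf2e1, of TFIIE, Med23 and the elongation factor Ell fell, with changes of -2.05 ± 0.13, -1.92 ± 0.13 and -1.64 ± 0.12, whereas Taf13, of TFIID, rose by 1.35 ± 0.17 and Med16 by 1.01 ± 0.13, the latter not held. Of 68 chromatin readers, writers and erasers 36 fell and 14 rose, with 32 falls and 0 rises held. The median was -0.61, or -0.36 with undetected members at their bounds, and 16 members were undetected on both treated arrays. In the fit of genes detected on all 4 staggerer arrays 24 of 48 fell and 13 rose. Kat14, of an acetyltransferase complex, went from 10.87 and 11.01 to 8.11 and 8.42, a change of -2.68 ± 0.14 (adjusted p = 1.13e-05). The demethylase Kdm4b fell by 1.67 ± 0.12, and Arid5b and the remodeler Chd1 were undetected on both treated arrays, at least 5.23-fold and 2.48-fold lower, with a second Chd1 probe at -1.54. The methyltransferase Setd7 rose by 1.08 ± 0.15, not held with no between-array normalization.

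Genes of message decay and of ribosome assembly followed the same direction. Of 27 decay and deadenylation genes 17 fell, 3 rose and 15 of the falls held, against 33.3%, 31.8% and 24.8% of all genes. Pnrc2, which links decapping to nonsense-mediated decay, went from 11.40 and 11.39 to 8.71 and 8.65, a change of -2.72 ± 0.12 (adjusted p = 9.72e-06). Btg1, which recruits deadenylases, fell by 2.16 ± 0.17. Cnot2, of the deadenylase complex, fell by 2.47 ± 0.13, with a second probe at -1.36, and Zfp36l1, which binds AU-rich elements, fell by 1.998 ± 0.11, with a second probe at -0.42. Of 44 ribosome biogenesis genes 28 fell and 5 rose (median -0.87), 25 of the falls held. Gnl3, nucleostemin, went from 12.96 and 12.85 to 10.85 and 10.98, a change of -1.99 ± 0.12 (adjusted p = 1.73e-05), the helicase Ddx52 fell by 2.21 ± 0.15 and Nip7 fell by 2.01 ± 0.14, while Nop10, of box H/ACA particles, rose by 0.78 ± 0.15. Of 21 cholesterol synthesis genes 11 rose and 6 fell, against 31.8% and 33.3% of all genes. Held were 2 rises and 5 falls, near the 9.7% and 24.8% of all genes. The median of 0.51 turned to -0.28 with no between-array normalization. Hmgcs1, which makes HMG-CoA, and Sqle, squalene epoxidase, fell, with changes of -2.80 ± 0.11 and -2.66 ± 0.16, and Scap, the sterol sensor, and the desaturase Sc5d rose by 1.20 ± 0.13 and 1.18 ± 0.13, calls lost with no between-array normalization.

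**Figure D4:**
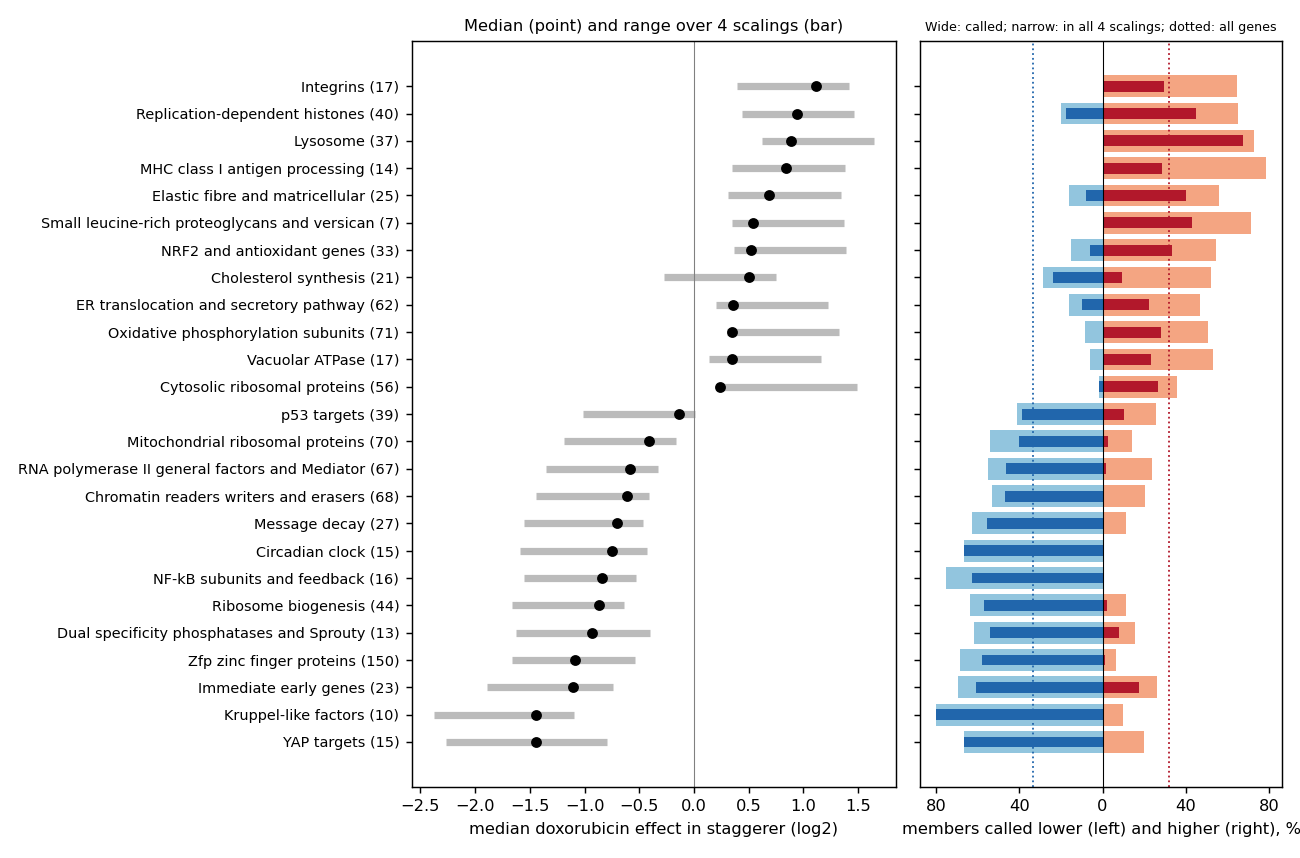
Left, median change after doxorubicin in staggerer cells (log2) of 25 gene lists (tested members in brackets), the point by quantile normalization and the bar from the lowest to the highest of 4 scalings; right, members called lower or higher (%), with narrow bars for calls under all 4 scalings and dotted lines at 33.3% and 31.8%, the shares of all genes. The lysosome list has 27 of 37 members higher, and the Krüppel-like factor list 8 of 10 lower.

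Targets of p53 moved both ways, and with quantile normalization more of them fell than rose. Of 39 on the array above background, 10 rose (25.6%, against 31.8% of all genes), 16 fell (41.0%, against 33.3%) and 13 did not pass. Held were 4 rises and 15 falls, against 9.7% and 24.8% of all genes. The median was -0.14, and -1.01 with no between-array normalization. With median centring it was 0.01, and 16 rose and 15 fell. Cdkn1a, the cycle inhibitor p21, had levels of 13.997 and 14.09 without and 12.25 and 12.24 with doxorubicin, a change of -1.80 ± 0.13 (adjusted p = 3.25e-05). Mdm2, the ligase that degrades p53, went from 13.21 and 12.99 to 11.40 and 11.62, a change of -1.59 ± 0.14 (adjusted p = 6.73e-05). Pmaip1, which encodes the death protein NOXA, went the other way, from 9.02 and 9.27 to 10.61 and 10.83, a rise of 1.57 ± 0.14 (adjusted p = 7.99e-05). Bbc3, which encodes PUMA, Phlda3, a brake on AKT, Apaf1, the apoptosome scaffold, and Sesn2, sestrin 2, fell, with changes of -2.53 ± 0.19, -1.87 ± 0.13, -1.47 ± 0.14 and -2.01 ± 0.35; a second Bbc3 probe was at -0.40. Rrm2b, a ribonucleotide reductase subunit, and Abhd4 rose by 1.36 ± 0.14 and 1.16 ± 0.13, the first not held with no between-array normalization. The death receptor gene Fas fell by 0.64 ± 0.14, a call lost with median centring (-0.29), and Ccng1, cyclin G1, had a change of -0.33 ± 0.14 (adjusted p = 0.0715) that turned to 0.89 with median centring.

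Of the drug's own targets, Top2a, the topoisomerase of dividing cells, went from 9.97 and 10.27 to 9.48 and 9.28 and fell by 0.74 ± 0.15 (adjusted p = 0.00305), and Top2b was undetected on all 4 arrays with a change of -0.45 ± 0.19 (adjusted p = 0.0679, and 0.57 with median centring). The deubiquitinase Usp7 fell by 0.64 ± 0.17 (adjusted p = 0.0134), a call lost without untreated replicate 2 (-0.54). Myc was detected on 1 of the 4 arrays and had a change of -1.17 ± 0.33 (adjusted p = 0.0161), lost without untreated replicate 2 (-0.69) or doxorubicin replicate 2 (-1.04).

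Genes commonly taken as stable references differed among themselves. Gapdh was at 15.35 and 15.36 without and 15.60 and 15.45 with the drug, a change of 0.17 ± 0.11 (adjusted p = 0.225), which passed as higher with median centring (1.504) and with no between-array normalization (0.48). Actb had a change of -0.18 ± 0.11 (adjusted p = 0.192) by its brightest probe and 0.94 and 1.19 by dimmer ones, and with median centring the brightest was called higher (1.03). Hprt had 0.13 ± 0.15 (adjusted p = 0.466), with 1.52 and 1.34 by dimmer probes. Tbp, the TATA-binding protein, fell by 1.60 ± 0.12 (adjusted p = 4.15e-05) and did so under all 4 scalings.

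Markers were used to check the labelled cell type. Of 14 fibroblast markers, 13 were detected on each untreated array and 12 and 13 on the treated ones, and their summed background-corrected signal was 62496 and 60976 without and 73273 and 71309 with the drug. 5 of 14 rose and 4 fell, against 31.8% and 33.3% of all genes. All 4 tested mesothelial markers rose, from a summed signal of 147 and 129 to 313 and 311, with 1 of 5 detected on each untreated array and 3 and 2 on the treated ones. The part of these cells in the rises of matrix genes was not tested.

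Whether the response differed between the genotypes was tested by the interaction, the change in staggerer cells minus that in wild type cells. It was called for 5526 of 9340 genes, with the response higher in staggerer cells for 2484 (26.6%) and lower for 3042 (32.6%). Under all 4 scalings it was called higher for 1384 (14.8%) and lower for 2348 (25.1%). In wild type cells 2469 genes rose and 2848 fell after the drug. Among the 2966 genes that rose in staggerer cells 1096 also rose in wild type cells, 1201 did not pass and 669 fell. Among the 3108 that fell 1336 also fell in wild type cells, 1273 did not pass and 499 rose. All 669 and all 499 of the opposed genes had a called interaction. Across genes, which are not independent replicates, the changes in the genotypes had a Pearson correlation of 0.38, and the arrays compared in each genotype are its own.

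Among p53 targets every called interaction was lower in staggerer cells: 24 of 39 had a lower and 0 a higher response in staggerer cells, against 32.6% and 26.6% of all genes. In wild type cells 28 of the 39 rose and 0 fell, with a median of 0.69, beside 2469 risen and 2848 fallen of all 9340 genes. Cdkn1a went from 14.08 and 14.002 to 14.59 and 14.87 in wild type cells, an interaction of -2.49 ± 0.19 (adjusted p = 0.000164). For Mdm2 it was -2.56 ± 0.20 and for Fas -2.61 ± 0.20. Pmaip1, which rose in both genotypes, had -1.37 ± 0.20 (adjusted p = 0.00106), that is, a smaller rise in staggerer cells.

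The wild type cultures had more signal of macrophage, mesothelial and epithelial markers than the staggerer cultures, and less of neural markers. Macrophage markers summed to 12202 and 9985 on the untreated and 9777 and 10064 on the treated wild type arrays, and mesothelial markers to 4408 and 3377 and to 2966 and 2603, against at most 2255 and 313 on the staggerer arrays. Neural markers summed to 749 and 548 on the untreated and 366 and 329 on the treated wild type arrays. On the staggerer arrays they summed to 1315 and 1132 without and 1512 and 1147 with the drug. Of the 8 neural markers on the array 2 were detected on each staggerer array, so their sum rests on few genes. Epithelial markers summed to 1449 and 1103 on the untreated and 2010 and 1889 on the treated wild type arrays, against at most 308 on the staggerer arrays. Whether these sums stand for cell types, and their part in the interactions, was not tested.

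The lysosome list had the interaction higher for 19 and lower for 3 of 37 genes, against 26.6% and 32.6% of all genes. In wild type cells 12 of the 37 rose and 4 fell, with a median of 0.21, beside 2469 risen and 2848 fallen of all 9340 genes. The interaction was 1.93 ± 0.20 for Naglu (adjusted p = 0.000266) and 2.17 ± 0.20 for Lipa (adjusted p = 0.000225). Both were without a rise in wild type cells (-0.28 and -0.65). Ctsf rose more in wild type cells (3.20), with an interaction of -1.53 ± 0.21. The elastic fibre list had 16 higher and 1 lower of 25, and the secretory list 33 and 7 of 62. For the Zfp series the interaction was lower for 83 and higher for 5 of 150. In wild type cells 63 of the 150 fell and 23 rose, beside 2848 and 2469 of all 9340 genes. Of these 150 genes 74 were undetected on both treated staggerer arrays, so their interactions rest on levels at the floor there. How many interactions of these lists held under all 4 scalings is not given here.

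**Figure D5:**
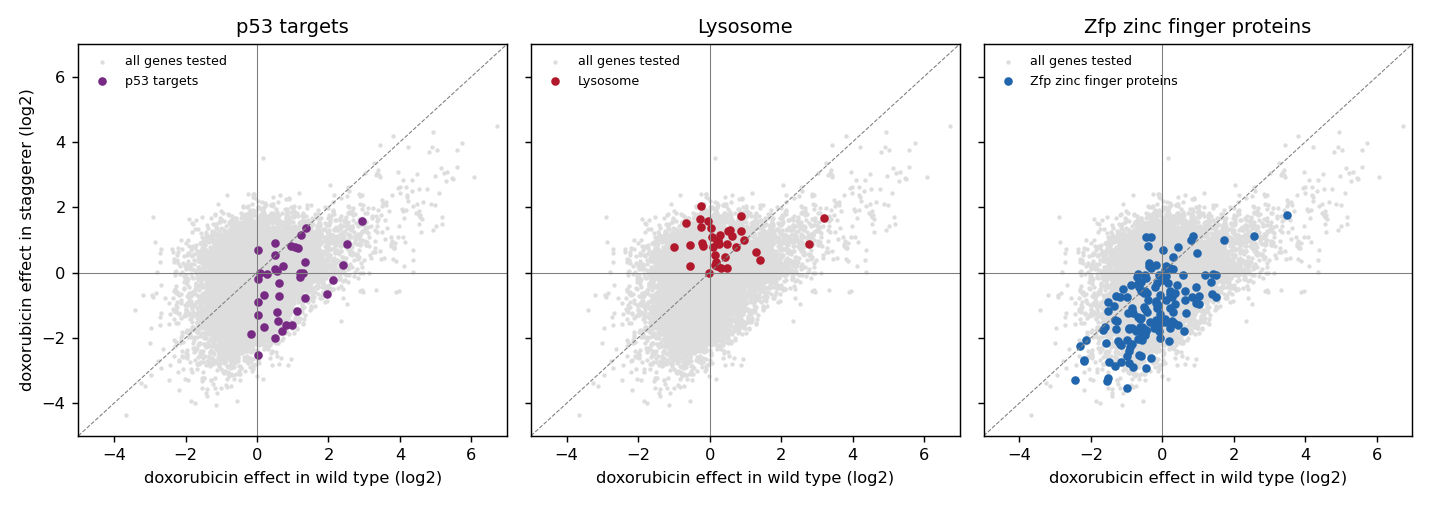
Change after doxorubicin in wild type (x) and staggerer cells (y), both log2, for all 9340 genes (grey) with p53 targets (39), lysosomal genes (37) and the Zfp series (150) marked; the dashed line marks equal change. No p53 target has a called interaction above the line, and 24 of 39 have one below it.

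Single genes showed the widest differences among those detected on all 8 arrays. Angptl7, an angiopoietin-like secreted protein, rose by 1.70 ± 0.19 in staggerer cells, from 7.78 and 7.85 to 9.39 and 9.64, and changed by -2.90 ± 0.19 in wild type cells, an interaction of 4.60 ± 0.27 (adjusted p = 0.000138). Rnu6 was at 12.43 and 12.50 and 12.61 and 12.65 on the wild type arrays without and with the drug, an interaction of 3.36 ± 0.16 (adjusted p = 0.000111). The response was also higher for Nfib, a nuclear factor I gene (3.79 ± 0.24), the serine protease-like Prss35 (3.53 ± 0.21), Rbms3, an RNA-binding protein (3.40 ± 0.18), and Mfap5 (3.35 ± 0.18). The largest lower response was that of Hey1, a Notch target, with 1.43 ± 0.22 in staggerer and 5.01 ± 0.22 in wild type cells, an interaction of -3.57 ± 0.32 (adjusted p = 0.000204). Btbd11 (-3.45 ± 0.16), the nudix hydrolase Nudt22 (-3.44 ± 0.22), the organic anion transporter Slco4a1 (-3.13 ± 0.19), Ddit4l, an inhibitor of mTOR signalling (-2.98 ± 0.16), and the peroxisomal thiolase Acaa1b (-2.98 ± 0.17) followed. In staggerer cells alone the change was 0.43 ± 0.13 for Slco4a1 and 0.89 ± 0.12 for Acaa1b, neither held.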

How the data were processed

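Total RNA was measured on 8 Illumina bead arrays. The authors deposited linear intensity values without normalization for 25697 probes and 1124 control rows, and a log2 table that equals quantile normalization of those intensities (largest difference 5.1e-09). Scanner software is not given in the sources used here. From the intensities, background was corrected on 1114 control rows (limma 3.58.1 nec, offset 16; R 4.3.3), followed by quantile normalization and log2. Detection was a control-based p under 0.01 on at least 2 arrays. All 8 arrays entered 1 limma fit with 1 mean per group (4 residual and 3.44 prior degrees of freedom), two-sided, with Benjamini-Hochberg adjustment over 9340 genes; every adjusted p is limma's. For a bound, the undetected group was set, per array, to the higher of the probe's own signal and the lowest detected one.

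The 71 gene lists and the members described were chosen with earlier results of these data known, so they are no independent support. Named were the 12 largest rises and falls held under 4 scalings, the 6 largest bounds and interactions each way, up to 6 members of a list by smallest p with up to 3 against its majority, and a fixed gene set; Ctsa and Mcoln1 were added for their promoter motif, and Cd63, Psap and Lamp2 as examples, after their values were seen. Names come from the platform annotation and RefSeq (GRCm38.p6), and promoter windows from RefSeq. Some genes of the fixed set are not reported here. Same-numbered arrays did not deviate together (correlations of -0.03 to 0.03), so the numbers pair nothing.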

Additional observations from a re-analysis of the deposited data

Results flagged for a closer look

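The response to doxorubicin differed between the genotypes by the interaction term for 5526 of 9340 genes (limma, adjusted p under 0.05). Among genes detected on all 8 arrays, the response was higher in staggerer than in wild type cells by 4.60 on the log2 scale for Angptl7, 3.79 for Nfib, 3.53 for Prss35, 3.40 for Rbms3, 3.36 for Rnu6 and 3.35 for Mfap5. The interaction was -3.57 for Hey1, -3.45 for Btbd11, -3.44 for Nudt22, -3.13 for Slco4a1, -2.98 for Ddit4l and -2.98 for Acaa1b. Among the fixed genes it was -2.61 for Fas, -2.56 for Mdm2, -2.55 for Bbc3, -2.50 for Sesn2, -2.49 for Cdkn1a, -1.37 for Pmaip1, -0.82 for Usp7 and 2.17 for Top2a. The staggerer doxorubicin arrays, with fewer detected probes, enter every one of these values; the part of that in them was not tested.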

How the results depend on the processing

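The number of genes called higher was 4657 with median centring and 966 with no between-array normalization, against 2966; the number called lower was 4817 with no between-array normalization, against 3108. Of the 2966 and 3108 genes, 906 and 3071 kept their call with no between-array normalization, 2966 and 2322 with median centring. With the other alternatives the counts stayed within 1.5 times the main count: no background correction and the authors' table (equal), no detection filter, stricter detection, averaging the probes of a gene, a trend in the variance, a fold of 1.5 or only the staggerer arrays. Without each array in turn the counts ran from 2409 to 2937 higher, 2686 to 3109 lower and 4726 to 5811 interactions. The replicate block gave 2912 higher, 3077 lower and 5421 interactions. The change in staggerer cells turned its sign for 5 named genes, by scaling: 0.89 for Ccng1, 0.57 for Top2b and 1.03 for Actb with median centring, and -0.56 for Slco4a1 (0.43 by quantile normalization) and -0.10 for Acaa1b (0.89) with no between-array normalization. With 2 arrays a group precision is low, and dim genes have only bounds.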
